A study of Mus musculus with 6 samples.

Results

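The genes that carry, store and sense zinc, iron and copper were read in inguinal white adipose tissue (iWAT) of mice without the zinc transporter ZIP13 and of their wild-type (WT) littermates. The members were chosen by name: the Slc30a and Slc39a families without Slc39a13 itself, the metallothioneins, the zinc sensor Mtf1, and 18 genes of iron and copper handling. On the array 46 such genes were found among 21368 named genes, 28 of them for zinc, 12 for iron and 6 for copper, and they were read by 62 of 55681 probes. The comparison asks whether the loss of 1 zinc transporter in iWAT went with a different level of the other genes for zinc, or of those for iron and copper. Total RNA from 3 WT and 3 Zip13-KO samples was hybridized to 6 Agilent 1-colour arrays: 1 labelled RNA per array, with brighter spots where more of a transcript is bound.

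In WT mice the Slc39a13 gene was intact. In Zip13-KO mice exons 6 to 8 were gone and a Neo cassette stood between exons 5 and 9. The deletion was made in R1 embryonic stem cells without Cre, so it was not limited to fat, and iWAT came from mice that lacked the gene in every organ. Both genotypes were on a C57BL/6J background after at least 7 generations of backcrossing, were 10 weeks old and ate powdered food, which was given because the knockout mice have too few teeth. No source says whether each array came from a separate mouse, so the p-values measure only the spread between these samples. Because iWAT is a mixture of cells, fewer cells of a type and less RNA per cell cannot be told apart in any value given here.

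Zinc enters the cytosol through the ZIP proteins, encoded by the Slc39a genes, and leaves it for the outside or for organelles through the ZnT proteins, encoded by the Slc30a genes. Metallothioneins are small cysteine-rich proteins that bind surplus zinc and copper, and the zinc finger factor MTF1 switches on their genes and the exporter gene Slc30a1 when free zinc rises. Iron arrives on transferrin through the transferrin receptor, is stored in ferritin and leaves cells through ferroportin, its known exporter, while macrophages free iron from old red cells through haem oxygenase. Copper enters through CTR1, is handed by chaperones to its enzymes, and is pumped into the Golgi or out of the cell by ATP7A and ATP7B. In fat, all of these metals feed the mitochondria and the secreted enzymes of the matrix, and brown and beige adipocytes, the heat-producing fat cells, are rich in mitochondria.

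Slc39a13 itself, the targeted gene, read 11.29, 10.87 and 10.72 on the log2 intensity scale in WT replicates 1 to 3 and 6.76, 6.66 and 6.47 in Zip13-KO replicates 1 to 3, so its signal went with the labels. All values below are on this scale and in this order of arrays. The difference was -4.33 (SE 0.17, adjusted p = 0.00128), with the place of the probe relative to the deleted exons not examined. The median processed signal was 39.2 to 40.6 intensity units in WT and 33.2 to 35.0 in Zip13-KO arrays, 58.7% to 63.2% of the spots were well above background and no spot was saturated. All arrays lay on 1 slide read in 1 scan, but the WT arrays and Zip13-KO replicate 1 lay in the first column of the slide and the other two in the next. WT replicate 1 stood apart for these genes: it held the highest value of all 6 arrays in 18 of 39 tested members (46.2%), against 25.7% of all genes tested. For several members whose values turn on that array, the value without it is given as well.

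Of the 46 genes, 39 were tested, and all 39 were well above background on all 6 arrays, so none came in through the genotype in which it was brighter. The other 7 were well above background on at most 1 array and have no value here. They are Slc30a2, Slc30a3 (the transporter of synaptic vesicles), Slc30a8 (that of insulin granules), Slc30a10, Slc39a5, Slc39a12 and Atp7b, the copper pump best known from liver. A gene was called when its limma adjusted p, taken over all 15306 genes tested, was under 0.05 and its change was over 0.58 on the log2 scale, which is 1.5-fold. Calls higher in the knockout made up 10.3% of all genes tested, and calls lower 8.38%.

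Of the 39 tested members, 0 were called higher and 4 (10.3%) were called lower, so the share called lower was near that of all genes. The 4 were Mt2, the zinc importer Slc39a6, the haem-degrading enzyme Hmox1 and the phagosomal iron transporter Slc11a1. By limma's unadjusted p under 0.05 with the same size of change the counts were 0 higher and 5 lower. Over all 15306 genes they were 1740 and 1533. By the methods' t-test with an unadjusted p the members had 0 and 4, and all genes 1552 and 1246. What is named the methods' t-test here is a plain t-test. The study combined its t-test with a median-ratio test, and that combination was not run. With no limit on size, 5 members (12.8%) were higher and 7 (17.9%) lower at an adjusted p under 0.05, against 19.3% and 15.2% of all genes. The arrays of the genotypes did not overlap for 23 members (59%), against 55.1% of all genes. Of these, 10 members (25.6%) were higher and 13 (33.3%) lower in Zip13-KO, next to 29.2% and 25.9% of all genes. The median change was -0.02 over the members and its median size was 0.25 on the log2 scale, next to 0.28 for the size over all genes tested.

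**Figure D1:**
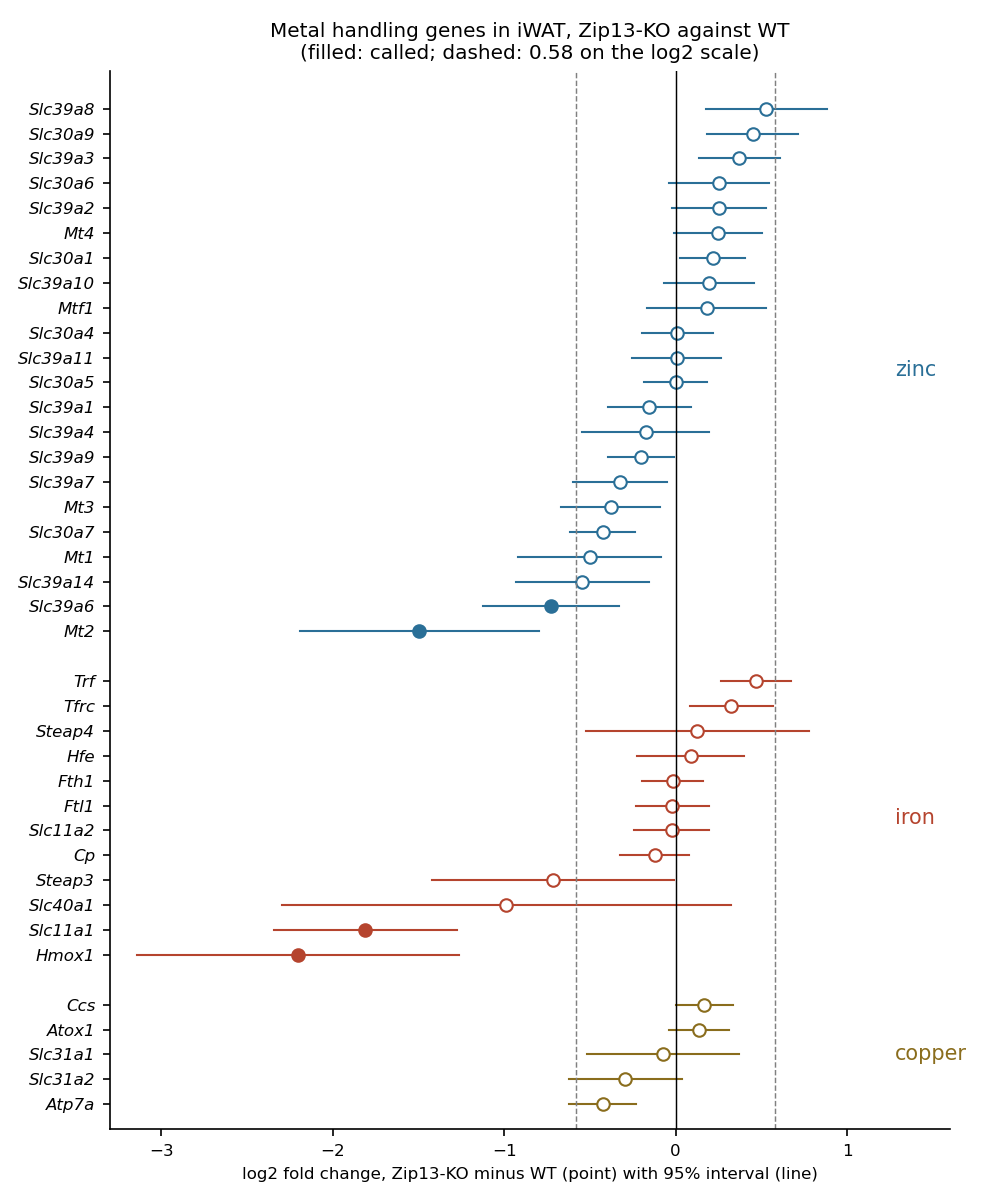
The plot gives the log2 fold change of each of the 39 tested members, Zip13-KO minus WT, as a point with its 95% interval, grouped by metal and ordered by size; filled points are called and the dashed lines mark 0.58. The 4 filled points, Mt2 and Slc39a6 among the zinc genes and Hmox1 and Slc11a1 among the iron genes, all lie left of 0.

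Mt2, a metallothionein of most tissues, had the largest difference of the zinc genes. Mt2 read 15.45, 16.25 and 15.39 in WT and 13.81, 14.51 and 14.29 in Zip13-KO. Every Zip13-KO array was below every WT array, and Mt2 was 2.82-fold lower (95% interval 1.74 to 4.57, log2 change -1.49, SE 0.29, adjusted p = 0.0133). Mt1, its neighbour and the other widely expressed form, read 15.93, 16.49 and 16.06 in WT and 15.49, 15.83 and 15.65 in Zip13-KO. These values did not overlap either, but the change of -0.50 (SE 0.17) did not pass the test (adjusted p = 0.0659). Without WT replicate 1 it was -0.61 (adjusted p = 0.0467) and passed. Leaving out any other array gave Mt1 an adjusted p of 0.0922 to 0.182, with a change of -0.33 (0.113) without WT replicate 2. The mean of the Mt1 probes was at -0.34 (adjusted p = 0.111). A dimmer Mt1 probe, designed on a predicted transcript, gave -0.19 with arrays that overlapped. In both genotypes, replicate 2 was the highest array for Mt1 and for Mt2.

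Mt3, the form first found in brain, read 9.01, 8.60 and 8.70 in WT and 8.36, 8.43 and 8.38 in Zip13-KO, and Mt4, the form of stratified epithelium, read 5.95, 5.96 and 5.91 against 6.05, 6.14 and 6.39. Mt3 lay lower and Mt4 higher in all Zip13-KO arrays, with changes of -0.38 (adjusted p = 0.0525) and 0.25 (adjusted p = 0.115) that did not pass. The 4 genes, which lie side by side on chromosome 8 in the order Mt4, Mt3, Mt2 and Mt1, thus had 1 call among them.

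The promoters of Mt1, Mt2 and Slc30a1 are shown because they hold the letters that MTF1 is known to bind, the metal response element, and their genes differed in direction. The core was searched as TGCACNC or TGCGCNC on both strands of RefSeq promoter windows of the GRCm38.p6 build. Every match was counted, also where matches shared letters, which none did in the stretches below. The core is in capitals below, and a match on the minus strand appears as its reverse complement. The stretches are chr8:94179029-94179118 for Mt1, chr8:94172368-94172647 for Mt2 and chr1:191906531-191906810 for Slc30a1, all on the plus strand.
Mt1: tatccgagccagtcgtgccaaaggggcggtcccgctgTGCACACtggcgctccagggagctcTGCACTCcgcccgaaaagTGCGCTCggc
Mt2: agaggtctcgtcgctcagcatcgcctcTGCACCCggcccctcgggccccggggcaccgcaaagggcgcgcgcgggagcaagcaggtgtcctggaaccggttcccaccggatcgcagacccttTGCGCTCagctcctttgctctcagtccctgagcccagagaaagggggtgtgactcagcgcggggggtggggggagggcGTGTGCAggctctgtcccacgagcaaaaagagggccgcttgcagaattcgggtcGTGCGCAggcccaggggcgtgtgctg
Slc30a1: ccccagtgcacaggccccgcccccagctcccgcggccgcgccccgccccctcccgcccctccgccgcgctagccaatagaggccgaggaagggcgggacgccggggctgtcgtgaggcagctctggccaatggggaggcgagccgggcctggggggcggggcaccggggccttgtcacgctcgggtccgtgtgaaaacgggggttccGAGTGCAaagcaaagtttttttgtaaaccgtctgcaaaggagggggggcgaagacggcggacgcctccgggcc

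The Mt2 window held 4 cores, at -223, -128, -50 and 5 from the annotated start, and the Mt1 window held 3, at -23, 3 and 21. That of Slc30a1 held 2, at -43 (in capitals above) and at 31, just past the printed stretch. Of all 32851 promoter windows, 25.7% held at least 1 core, 1.97% at least 3 and 0.517% at least 4. Promoter windows were matched for 37 of the 46 members: 14 of 24 zinc genes (58.3%), 1 of 8 iron genes (12.5%) and 3 of 5 copper genes (60%) had a core in at least 1 window. These are shares of genes, some with several windows, and not of windows as in the 25.7%. Counted by window, 19 of 48 member windows (39.6%) held a core. Holding cores did not go with 1 direction: Mt2 and Mt1 read lower in the knockout, Slc30a1 read higher, and Slc30a4, with 3 cores, differed by 0.01. These matches describe letters and are no evidence of binding.

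Slc30a1, which encodes the ZnT1 exporter of the plasma membrane, read 8.82, 8.79 and 8.83 in WT and 9.04, 8.93 and 9.12 in Zip13-KO. All Zip13-KO arrays were higher, by 0.22 (SE 0.08), which did not pass the test (adjusted p = 0.0756). Mtf1 differed by 0.18 with overlapping arrays (adjusted p = 0.35), and its dimmer kept probe gave -0.17, so the probes of this gene disagreed in sign.

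Among the Slc30a exporters 6 of 10 were tested and 0 were called, by limma and by the methods' t-test alike. At an unadjusted limma p under 0.05 and any size, 2 were higher and 1 lower. Over all 15306 genes these counts were 3876 and 3341. Slc30a7, which loads zinc into the Golgi, read 8.65, 8.52 and 8.60 in WT and 8.14, 8.12 and 8.24 in Zip13-KO. The gap was -0.43 (SE 0.08, adjusted p = 0.0118), all 3 probes of the gene lay lower without overlap, and the size fell short of 0.58. Slc30a9, a mitochondrial zinc exporter, read 9.19, 9.52 and 9.48 in WT and 9.90, 9.79 and 9.85 in Zip13-KO. It was higher by 0.45 (SE 0.11, adjusted p = 0.0251) and its other probe by 0.24, both without overlap. Slc30a4, Slc30a5 and Slc30a6, of the vesicles and the Golgi, differed by 0.01, -0.0004 and 0.25 with arrays that overlapped, and the signs of Slc30a4 and Slc30a5 turned under other settings, Slc30a5 under the 75th percentile scaling among them.

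Among the Slc39a importers 11 of 13 were tested. Slc39a6, the ZIP6 importer of the plasma membrane, read 10.34, 9.90 and 9.72 in WT and 9.32, 9.23 and 9.23 in Zip13-KO, and was called lower at -0.73 (SE 0.16, adjusted p = 0.0201). The call was lost when some arrays were left out: without WT replicate 1 the change was -0.55 (adjusted p = 0.0132), below the size limit, and without Zip13-KO replicate 1, 2 or 3 it kept its size (-0.75, -0.71 and -0.71) with adjusted p-values of 0.061, 0.0684 and 0.0611. Its closest relative, Slc39a10, read 7.58, 7.88 and 7.90 in WT and 8.05, 7.96 and 7.94 in Zip13-KO, the opposite direction, with a change of 0.19 that did not pass (adjusted p = 0.205).

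Slc39a8 and Slc39a14 encode the pair of ZIP proteins that also carry iron and manganese, and they read in opposite directions. Slc39a8 read 7.56, 7.10 and 7.05 in WT and 7.72, 7.81 and 7.78 in Zip13-KO, a gain of 0.53 (SE 0.15, adjusted p = 0.0356) just under the size limit. Without WT replicate 1 it was 0.69 (adjusted p = 0.00771) and was called higher, the single member called higher when any array was left out. Leaving out any other array gave Slc39a8 an adjusted p of 0.0823 to 0.106. Slc39a14 read 9.42, 9.02 and 8.97 in WT and 8.46, 8.50 and 8.82 in Zip13-KO, a difference of -0.54 (SE 0.16, adjusted p = 0.044). Without Zip13-KO replicate 3 that was -0.66 (adjusted p = 0.0461) and was called. Leaving out any other array gave Slc39a14 an adjusted p of 0.0536 to 0.134, with a change of -0.40 (0.0735) without WT replicate 1.

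Slc39a7, which releases zinc from the endoplasmic reticulum, read 14.22, 13.97 and 13.83 in WT and 13.70, 13.65 and 13.69 in Zip13-KO, with a change of -0.32 (adjusted p = 0.0678). Slc39a3 of the plasma membrane read 9.97, 9.89 and 9.79 against 10.39, 10.22 and 10.14, with a change of 0.37 (SE 0.10, adjusted p = 0.031). Both separated the genotypes, in opposite directions, and neither was called. Slc39a9 of the Golgi was at -0.20 (adjusted p = 0.097) and did not overlap either, whereas Slc39a1 (-0.15), Slc39a2 (0.25), Slc39a4 (-0.18) and Slc39a11 (0.01) overlapped. Without WT replicate 1, Slc39a2 was at 0.34 (adjusted p = 0.0465), short of the size limit. The median change was 0.11 over the exporters and -0.15 over the importers, each with members on both sides of 0.

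**Figure D2:**
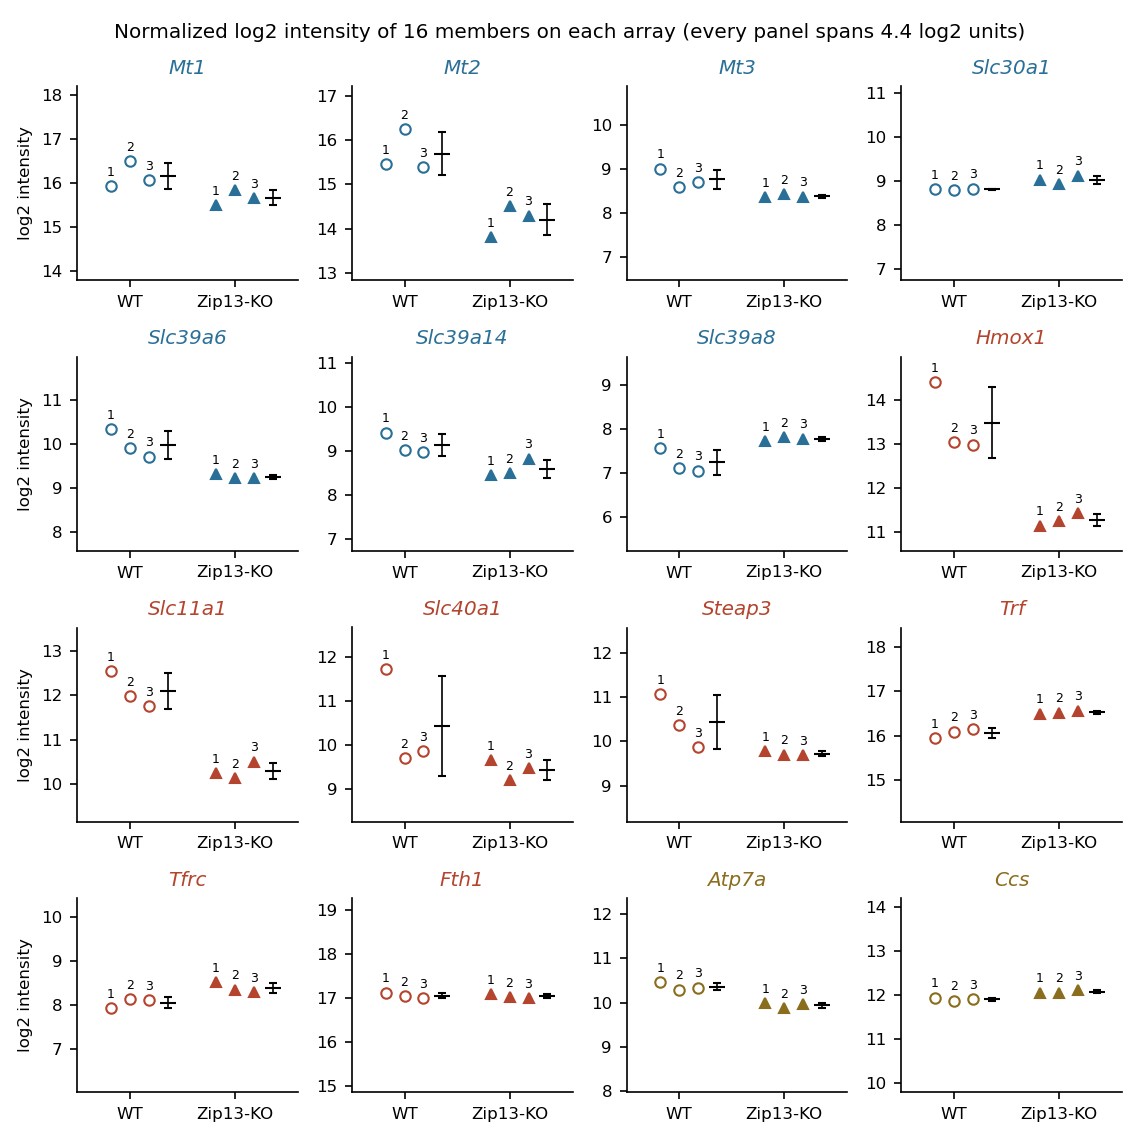
Each of the 16 panels plots the normalized log2 intensity of 1 member on the 3 WT arrays (open circles) and the 3 Zip13-KO arrays (filled triangles), numbered by replicate, with the mean and SD beside them; every panel spans 4.4 log2 units. Hmox1, Slc11a1, Mt2 and Slc39a6 separate the genotypes downward, Trf separates them upward by 0.47, the arrays of Fth1 overlap, and WT replicate 1 is far above the rest for Slc40a1.

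The iron genes held the largest differences of the 3 metals. Hmox1, the inducible haem oxygenase that frees iron from haem, read 14.40, 13.04 and 12.98 in WT and 11.14, 11.25 and 11.43 in Zip13-KO. It was 4.60-fold lower (95% interval 2.40 to 8.82, log2 change -2.20, SE 0.39, adjusted p = 0.011), and its dimmer probe gave -1.93, also without overlap. Slc11a1, or NRAMP1, which moves iron out of the phagosome of macrophages, read 12.55, 11.98 and 11.76 in WT and 10.24, 10.13 and 10.50 in Zip13-KO. It was 3.51-fold lower (95% interval 2.42 to 5.07, log2 change -1.81, SE 0.22, adjusted p = 0.00573). WT replicate 1 was the highest array for both genes, and both remained called when it, or any other single array, was left out.

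Macrophage markers moved with these genes. Of 11 markers, all well above background on every array, 9 were called lower, against 8.38% of all genes. When an array was left out, 7 to 9 were called lower. The summed level of the 11 markers was 16.67 to 17.39 on the log2 scale in WT and 15.56 to 15.99 in Zip13-KO. Relative to the WT mean, the median marker stood at 0.43, -0.07 and -0.28 on WT replicates 1 to 3 and at -1.38, -1.70 and -1.02 in Zip13-KO. WT replicate 1 was thus the highest WT array for the markers as for Hmox1 and Slc11a1. The part of these markers in the difference of Hmox1 and Slc11a1 was not tested. The 3 neutrophil markers Mpo, Camp and Cxcr2, of 7 tested, were also called lower, next to 8.38% of all genes. When an array was left out, 1 to 3 were called lower. Of the 7, 6 lay below 0, with a median change of -1.15. Among these, Ngp was kept by the filter through WT alone, with 2 of 3 Zip13-KO arrays well above background. Over the 6 markers above background on all 6 arrays, 3 were called lower and the median change was -1.09. Over all 7, the median marker stood at -0.06, -0.08 and -0.0008 relative to the WT mean on the WT arrays and at -1.19, -1.20 and -0.30 in Zip13-KO. The summed levels overlapped (15.91 to 16.02 in WT and 15.87 to 15.997 in Zip13-KO).

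Slc40a1, or ferroportin, the iron exporter that macrophages use to return iron to the blood, read 11.73, 9.71 and 9.87 in WT and 9.65, 9.21 and 9.48 in Zip13-KO. The single high array gave WT an SD of 1.12, and the difference of -0.99 (SE 0.54) did not pass (adjusted p = 0.195). Without WT replicate 1 it was -0.34 (adjusted p = 0.145). Steap3, the endosomal iron reductase, read 11.08, 10.37 and 9.87 in WT and 9.78, 9.70 and 9.69 in Zip13-KO. Its change of -0.72 (SE 0.29) had an adjusted p of 0.103, and the other probe overlapped at -0.49. Without WT replicate 1 the change was -0.40 (adjusted p = 0.116), and without WT replicate 3 it was -1.002 (adjusted p = 0.0287) and was called. Cp, the copper oxidase that works with ferroportin, was at -0.12 with overlapping arrays, while a dimmer probe for another transcript of the gene gave 0.38 without overlap.

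**Figure D3:**
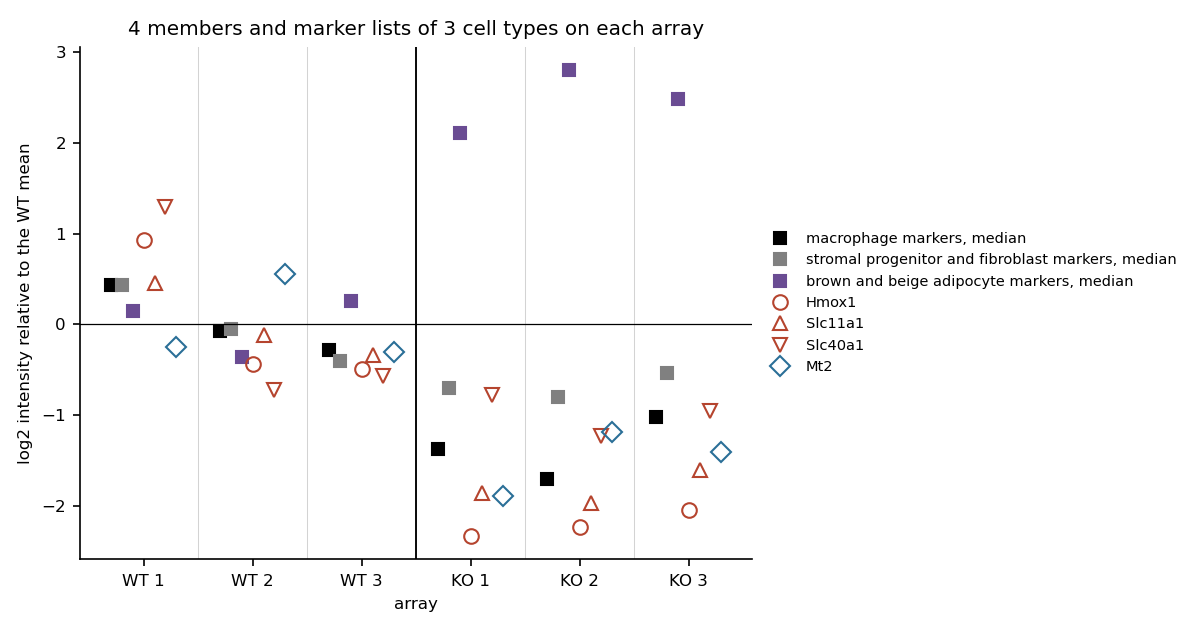
On each array, squares give the median of the macrophage, stromal and brown or beige adipocyte markers, and open symbols give Hmox1, Slc11a1, Slc40a1 and Mt2, all as log2 intensity relative to the WT mean. The macrophage squares lie at -1.02 to -1.70 in Zip13-KO, where Hmox1 and Slc11a1 are also low, and WT replicate 1 is the highest WT array for these markers and for the 3 iron genes but not for Mt2.

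Transferrin and its receptor read higher in Zip13-KO, by smaller amounts. Trf, transferrin, read 15.94, 16.09 and 16.15 in WT and 16.49, 16.52 and 16.56 in Zip13-KO, a difference of 0.47 (SE 0.08, adjusted p = 0.0114), and the other probe gave 0.58. No array overlapped in either probe, and the size of the brighter one fell short of the limit. Tfrc, the transferrin receptor, read 7.92, 8.13 and 8.11 in WT and 8.51, 8.34 and 8.29 in Zip13-KO, a difference of 0.33 (SE 0.10, adjusted p = 0.0479). Without WT replicate 1 Tfrc was at 0.26 (adjusted p = 0.0876), and leaving out any other array gave an adjusted p of 0.0714 to 0.147. Its other kept probe overlapped at -0.12, so the probes of Tfrc did not give 1 direction. Hfe, which binds the receptor, Slc11a2, the endosomal iron channel DMT1, and Steap4, a metal reductase of adipocytes, differed by 0.09, -0.02 and 0.12 with overlapping arrays, and each sign turned under at least 1 other setting. Adipocyte markers, summed, read 18.73 to 19.10 in WT and 19.29 to 19.33 in Zip13-KO, with Plin1 and Lipe of 8 called higher (4 without WT replicate 2 and 0 when any other array was left out), and their part in the level of Trf was not tested.

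Ferritin transcripts overlapped between the genotypes. Fth1, the heavy chain, read 17.12, 17.03 and 17.00 in WT and 17.08, 17.02 and 17.00 in Zip13-KO, and Ftl1, the light chain, read 16.79, 16.69 and 16.54 against 16.69, 16.62 and 16.64. Their differences of -0.02 and -0.02 had 95% intervals of -0.19 to 0.16 and -0.23 to 0.20, and the 75th percentile scaling turned them to 0.10 and 0.11. A dimmer Ftl1 probe was at -0.56 without overlap, and since ferritin genes have many near copies in the genome, what each probe binds is uncertain.

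The copper genes showed the smallest range. Atp7a, the copper pump, read 10.46, 10.29 and 10.34 in WT and 9.98, 9.87 and 9.96 in Zip13-KO. It was lower on every Zip13-KO array, with a change of -0.43 (SE 0.08, adjusted p = 0.0129), and was not called because of its size. The chaperones Ccs, which serves superoxide dismutase, and Atox1, which serves the pumps, lay higher on every Zip13-KO array, by 0.17 (adjusted p = 0.103) and 0.13 (adjusted p = 0.188), and did not pass. Under the 75th percentile scaling they were at 0.24 (adjusted p = 0.0406) and 0.29 (adjusted p = 0.0313), still short of the size limit, and the methods' t-test gave Ccs an adjusted p of 0.0338. The importer Slc31a1, or CTR1, read 10.53, 10.13 and 9.80 in WT and 10.16, 10.05 and 10.03 in Zip13-KO, a difference of -0.07 with WT arrays on both sides of the knockout, and of 0.11 without WT replicate 1. Slc31a2 was at -0.29 with overlapping arrays (adjusted p = 0.14), and its dimmer probe at -0.46 without overlap.

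Set side by side, the metals had medians close to 0, at 0.004 for zinc, -0.02 for iron and -0.07 for copper, where all genes tested had a median of -0.0005. Zinc had 0 higher and 2 lower calls of 22 genes (9.09% lower), iron 0 and 2 of 12 (16.7%), and copper 0 and 0 of 5. At an unadjusted limma p under 0.05 and any size, the copper genes had 1 higher and 1 lower, and all 15306 genes had 3876 and 3341. The methods' t-test called 0 members higher for any metal. The zinc genes ran from -1.49 (Mt2) to 0.53 (Slc39a8), the iron genes from -2.20 (Hmox1) to 0.47 (Trf) and the copper genes from -0.43 (Atp7a) to 0.17 (Ccs). These are counts and medians of unequal lists, and a difference between the metals was not tested.

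**Figure D4:**
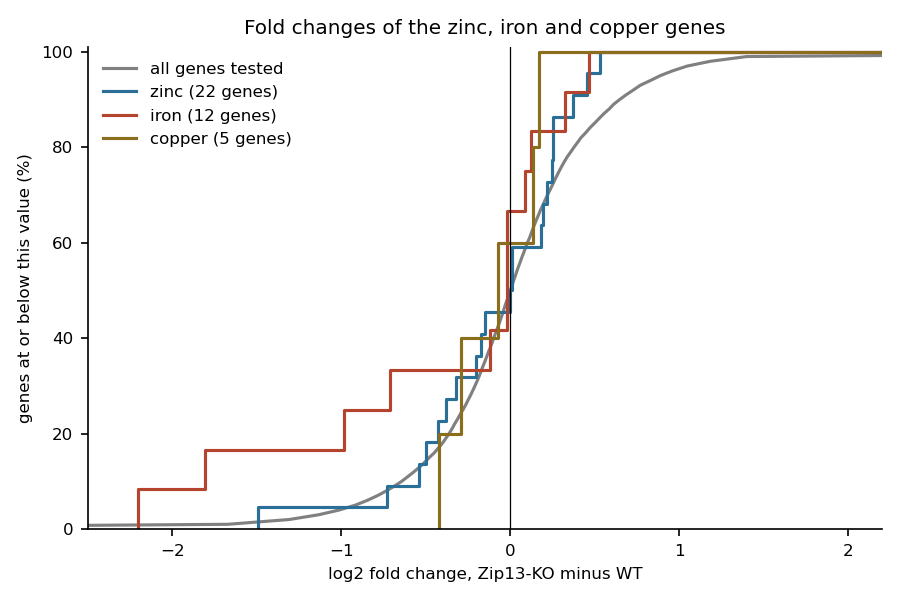
The lines give, for each log2 fold change on the horizontal axis (Zip13-KO minus WT), the percentage of genes at or below it, for the 22 zinc, 12 iron and 5 copper genes and for all 15306 genes tested (grey). All 3 metals cross the middle near 0, and the lower tail is longest for iron, which starts at -2.20.

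The genes that use the metals were described from lists by function. Of zinc enzymes and zinc-binding proteins, 21 of 24 were tested, and 5 (23.8%) were called higher and 4 (19%) lower, next to 10.3% and 8.38% of all genes. Of these, Car14 passed the filter for dim probes through Zip13-KO alone (well above background on 2 of 3 WT arrays) and Adh7 through WT alone (on 1 of 3 Zip13-KO arrays). With genes above background on all 6 arrays, 4 were higher and 3 lower of 19, and when an array was left out 2 to 5 were higher and 1 to 4 lower. The higher genes were the carbonic anhydrases Car14 (1.41, adjusted p = 0.0291), Car11 (0.87) and Car5b (0.82), the alcohol dehydrogenase Adh1 (0.85) and the phosphatase Alpl (0.76). The lower genes were S100a9 (-1.55, adjusted p = 0.0329) and S100a8 (-1.47, adjusted p = 0.0411), which together form calprotectin, the zinc-binding protein of neutrophils and other myeloid cells, with Car9 (-1.11) and Adh7 (-1.07). S100a9 read 13.77, 13.52 and 13.52 in WT and 11.09, 12.34 and 12.74 in Zip13-KO, and 3 neutrophil and 9 macrophage markers were also called lower, as given above. Their part in the level of S100a8 and S100a9 was not tested. Both S100 calls were lost when any WT array or Zip13-KO replicate 2 was left out, with changes of S100a9 from -1.06 to -1.89. With each of the 6 arrays left out in turn, Car14 and Car5b lost their calls 3 times each, Adh7 2 times and Alpl 1 time. Car11, Adh1 and Car9 stayed called.

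The genes around iron uptake and regulation split both ways, with 5 of 27 tested called higher (18.5%) and 3 lower (11.1%), the lower share near the 8.38% of all genes and the higher one next to 10.3%. When an array was left out, 2 to 5 were called higher and 0 to 3 lower. With genes above background on all 6 arrays, 5 were higher and 2 lower of 25. Hamp2, a near copy of the hepcidin gene whose product shuts ferroportin, read 3.52, 5.03 and 4.88 in WT and 6.39, 6.32 and 6.18 in Zip13-KO (difference 1.82, adjusted p = 0.0185). Hamp, the copy it may share probe signal with, was at 1.08 and did not pass (adjusted p = 0.214). Hamp was kept by the filter through Zip13-KO alone, with 2 of 3 WT arrays well above background. The others called higher were the second transferrin receptor Tfr2 (1.22), Aco1, the iron-regulated protein IRP1 (0.95), the oxidase Heph (0.70) and the hepcidin inducer Bmp6 (0.68). With each of the 6 arrays left out in turn, Aco1 and Bmp6 stayed called. Tfr2 lost its call 5 times, Heph 4 times and Hamp2 3 times. Called lower were the reductase Steap1 (-2.04, adjusted p = 0.033), Lcn2, which binds bacterial iron carriers (-1.53, adjusted p = 0.016), and the reductase Cybrd1. Cybrd1 did not rise well above background in any knockout sample and was at least 1.30-fold lower. It was kept by the filter through WT alone. Its call was lost in 5 of the 6 leave-outs, and that of Lcn2 in 2. Steap1 read 9.15, 7.83 and 6.87 in WT, with replicate 1 the highest array, as for Steap3, and without that array its change was -1.44 (adjusted p = 0.0247). The call of Steap1 was lost without WT replicate 2 or any Zip13-KO array, at changes of -1.98 to -2.16.

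Haem synthesis had 6 of 13 genes called higher (46.2%, against 10.3% of all genes) and 1 lower, with a median change of 0.49. When an array was left out, 2 to 6 were called higher and 0 lower, with medians of 0.43 to 0.54. The count was 2 without replicate 1 of WT or replicate 1 or 2 of Zip13-KO, and 3 without replicate 3 of Zip13-KO. The 7 brown and beige adipocyte markers were called higher as well (median 2.25), 1 of them, Elovl3, kept by the filter through Zip13-KO alone, and 6 of 6 were called among those above background on all arrays. Their summed level was 15.13 to 15.82 in WT and 17.30 to 17.93 in Zip13-KO, and their part in the haem and iron-sulphur genes was not tested. Alas1, the first enzyme of the pathway in most cells, read 13.43, 14.09 and 14.16 in WT and 14.42, 14.64 and 14.61 in Zip13-KO (0.66, adjusted p = 0.0497). Alad, the next enzyme, was at 0.75 (adjusted p = 0.0196) and the mitochondrial carrier Slc25a39 at 0.66 (adjusted p = 0.0067). Alad lost its call in 4 of the 6 leave-outs, without WT replicate 1 at a change of 0.56, and Slc25a39 stayed called in each. Alas2, the red-cell form of the first enzyme, read 11.91, 11.74 and 12.57 in WT and 10.75, 11.25 and 11.49 in Zip13-KO, and was called lower (-0.91, adjusted p = 0.0472). The forms of the enzyme lay in opposite directions, but Alas2 was not called when any array was left out (-0.67 to -1.08), and Alas1 was called only without WT replicate 3 and was at 0.43 without WT replicate 1. Of 5 erythroid markers tested, including 4 globin genes, all lay lower without overlap, next to 25.9% of all genes. By the main fit 0 were called, with adjusted p-values down to 0.0503 for Hbb-bt. With only genes above background on all 6 arrays in the fit, 2 of the same 5 were called lower. The summed level of the erythroid markers was 18.67 to 19.04 in WT and 18.32 to 18.60 in Zip13-KO, and its part in the level of Alas2 was not tested.

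Iron-sulphur cluster assembly and mitochondrial iron import had 7 of 29 called higher (24.1%) and 1 lower, and 17 (58.6%, against 19.3% of all genes) higher at an adjusted p under 0.05 of any size. The median was 0.33, and 3 to 10 were called higher and 0 to 1 lower when an array was left out, with 3 higher without Zip13-KO replicate 1 or 2. Cisd1, mitoNEET of the outer mitochondrial membrane, read 12.67, 12.87 and 13.22 in WT and 13.93, 14.01 and 13.88 in Zip13-KO (1.02, adjusted p = 0.00741), and the assembly factors Bola3 and Bola1 were at 0.90 and 0.72. Slc25a37, mitoferrin-1, the mitochondrial iron importer of red-cell precursors, was called lower (-0.61, adjusted p = 0.0215), while Slc25a28, the form of other tissues, was at -0.11 (adjusted p = 0.274). The call of Slc25a37 was lost without WT replicate 3 or any Zip13-KO array. Over the 6 leave-outs its change ran from -0.46 to -0.71. Bola1 lost its call in 2 of the 6 leave-outs, and Cisd1 and Bola3 stayed called in each.

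The lists for copper lay on either side of 0. Of 8 tested genes that bring copper to cytochrome c oxidase, 7 (87.5%, against 19.3% of all genes) were higher at an adjusted p under 0.05 of any size and 2 (25%, against 10.3%) were called, with a median of 0.47. Cox19 read 11.59, 11.97 and 12.05 in WT and 12.85, 12.95 and 12.82 in Zip13-KO (1.004, adjusted p = 0.00671), and Cox11 was at 0.72 (adjusted p = 0.00696). Of 12 copper enzymes, 0 were called higher and 1 lower, the lysyl oxidase Loxl4 (-1.08, adjusted p = 0.0498). Without WT replicate 1, Loxl4 was at -0.77 (adjusted p = 0.0801) and the median of the list at -0.02, against -0.27 with all arrays. Loxl4 stayed called only without WT replicate 3, and leaving out an array gave 0 to 1 copper enzymes higher and 0 to 3 lower. At an unadjusted limma p under 0.05 and any size, 3 of the 12 copper enzymes were higher and 2 lower, next to 3876 and 3341 of all 15306 genes. The stromal markers had 3 of 8 called lower (Pdgfra, Dpp4 and Thy1), with summed levels of 17.15 to 18.12 in WT and 16.98 to 17.21 in Zip13-KO, and 0 to 7 called lower when an array was left out. The part of the brown and beige markers in the copper delivery genes, and of the stromal markers in the copper enzymes, was not tested.

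**Figure D5:**
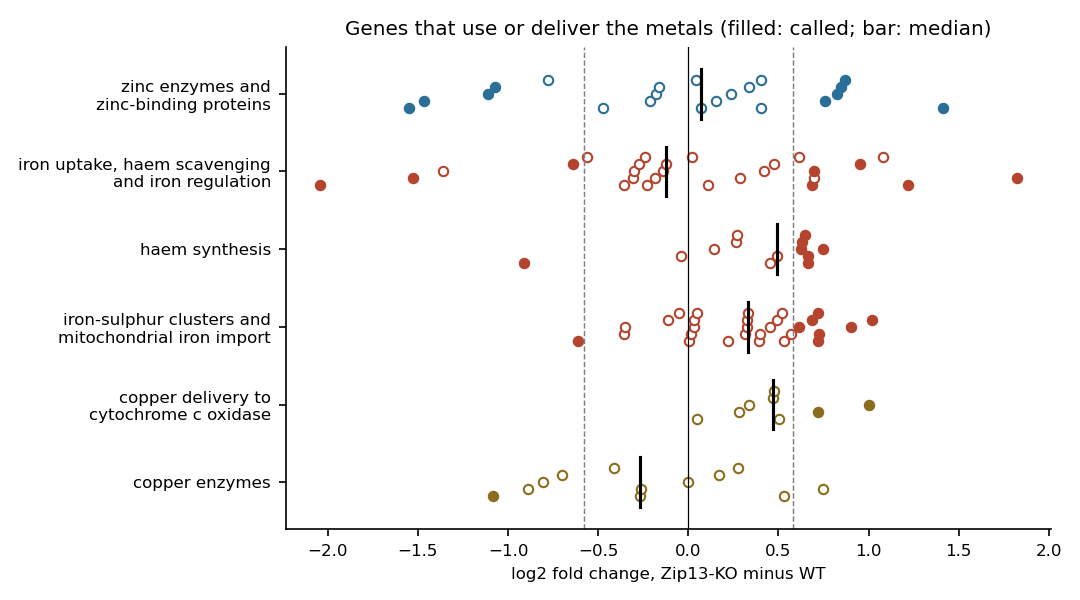
Each point is the log2 fold change of 1 gene, Zip13-KO minus WT, in 6 lists of genes that use or deliver zinc (blue), iron (red) or copper (brown); filled points are called, black bars are medians and dashed lines mark 0.58. The medians of haem synthesis (0.49), iron-sulphur clusters (0.33) and copper delivery (0.47) lie right of 0, and that of the copper enzymes lies at -0.27.

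The slide column could be set as a block only through Zip13-KO replicate 1, the single knockout array in the column of the WT arrays. In that fit Mt2 was at -1.89 (adjusted p = 0.0657), Hmox1 at -2.33 (0.0841), Slc11a1 at -1.86 (0.0618) and Slc39a6 at -0.67 (0.149). The directions held and none passed, in a fit that called 0 genes higher and 7 lower of all 15306, so the lost calls show nothing about array position.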

How the data were processed

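RNA of iWAT from 3 WT and 3 Zip13-KO samples was hybridized to 6 Agilent whole-genome mouse arrays (SurePrint G3). The scanner output that the authors deposited came from Feature Extraction 11.5.1.1, and its processed signal is an intensity corrected for background but not normalized between arrays. They also deposited a table of log2 values, which matched the quantile-normalized log2 of the raw median signal (rank correlation 1, sorted columns within 0.049) and was used as an alternative.

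After removal of control and outlier spots, log2 processed signals were averaged per probe and quantile normalized between arrays. A probe was kept when either genotype had it well above background on each of its 3 arrays. They were named by RefSeq accession without version (GRCm38.p6; 28331 of 55681 probes, 50.9%), and the brightest probe stood for a gene. Genotypes were compared in R 4.3.3 with lmFit and eBayes of limma 3.58.1 and Benjamini-Hochberg adjustment over all genes tested; the steps were tested on simulated data. Summed levels were not tested, since 3 arrays against 3 cannot give an exact permutation p below 0.1 (two-sided).

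All members of the name rule were reported. From each list by function, the 3 called genes with the largest rise and fall were named; other genes behind counts of 5 or fewer, with Hamp, Slc25a28 and Hbb-bt, were named after their values were seen. The members, lists and markers were chosen with earlier results of these data known. Alternatives were other scalings, background corrections, filters, probe rules, tests and thresholds, blocks, and each array left out; for the lists by function and the markers, leaving out arrays and the filter on all 6 arrays were added after seeing the data. Normexp and uncorrected values used the median signal. Precision is limited by the number of arrays. Promoter windows are from RefSeq (GRCm38.p6), and gene positions on the array's build are not used here.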

Additional observations from a re-analysis of the deposited data

How the results depend on the processing

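The count of members called higher (0) was 1 without WT replicate 1 (Slc39a8) and 5 with no fold threshold, and leaving out each array gave 0 to 1. The count called lower (4) was 2 by the methods' t-test with Benjamini-Hochberg adjustment (Mt2 then at an adjusted p of 0.0523 and Slc39a6 at 0.0624), 1 at an adjusted p under 0.01, 7 with no fold threshold and 0 with the slide column as a block. Leaving out each array gave 3 to 5. The copper median (-0.07) was 0.030 with no filter, 0.030 with the Gaussian mixture filter, 0.0053 with the slide column as a block, and -0.25 to 0.11 with an array left out. The zinc and iron medians moved by less than the spread between arrays under every setting run.

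The members that changed sign were all near 0 and not called. Slc30a4 was -0.019 with normexp, -0.017 with no background correction and -0.01 in the deposited table, Slc39a11 was -0.025, -0.025 and -0.030 in these, and Slc11a2 was 0.040, 0.031 and 0.033. With the slide column as a block Slc11a2 was 0.065, Steap4 -0.13, Fth1 0.032, Ftl1 0.017 and Slc31a1 0.0053. The 75th percentile scaling gave Slc30a5 0.0073, Fth1 0.098 and Ftl1 0.11, the deposited table gave Fth1 0.037 and the mean of the probes gave Cp 0.13. With an array left out, Slc30a4 ran from -0.054 to 0.044, Slc30a5 from -0.039 to 0.031, Slc39a11 from -0.086 to 0.067, Hfe from -0.023 to 0.19, Slc11a2 from -0.076 to 0.026, Steap4 from -0.035 to 0.40, Fth1 from -0.050 to 0.015, Ftl1 from -0.089 to 0.040 and Slc31a1 from -0.25 to 0.11. The causes were not tested. Of 741 values of single members under alternatives, 691 kept their direction and side of the threshold. Most members were not called, and the other filters, the other tests and the replicate block left the fold change as it was, so this count says little. Of the called members, Slc39a6 lost its call in 6 of 19 settings, Mt2 in 2, and Hmox1 and Slc11a1 in 1 each.

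Same-numbered samples did not deviate together over all genes (correlations of -0.02, 0.04 and -0.08), which does not show whether the numbers pair the samples. With the replicate number as a replicate block, 0 members were called higher and 4 lower, with medians of 0.004, -0.02 and -0.07 for zinc, iron and copper, and the calls over all genes went from 1576 and 1282 to 1278 and 1051. With the replicate block Mt1 was at -0.50 (SE 0.10, adjusted p = 0.0415), which passed but was short of the size limit. Slc30a9 (0.0695), Slc39a8 (0.0743), Slc39a14 (0.0994) and Tfrc (0.12) no longer had an adjusted p under 0.05. All arrays shared 1 slide and 1 scan, so neither could serve as a block. The number of arrays sets the smallest change that could be seen.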
